A study of Sorghum bicolor with 64 samples.

Results

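The comparison described here is head removal against intact heads in leaves of DD sorghum at 3 d. It was chosen by its labels: genotype DD, leaf, head removal or control, 3 d. It takes 6 of the 24 leaf libraries and 6 of the 53 libraries in the deposited expression tables, and all 16386 genes of the leaf table.

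The plants were field-grown near-isogenic lines (NILs) in the Tx623 background that differ at the Dry Stalk locus. The DD NILs carry a functional allele of the transcription factor gene SbNAC074A, with white midribs and dry stems, and the dd NILs a recessive allele that encodes a truncated protein, with green midribs and juicy stems. Heads were cut off at anthesis in the decapitated plants and left on in the controls, and the middle of the second leaf, not counting the flag leaf, was taken 3 or 10 d later. The groups used are DD head removal 3 d and DD control 3 d, each with replicates 2, 3 and 4. Replicate 1 of either group was not analysed here. The other leaf groups, set beside them only where stated, are DD at 10 d and dd at 3 and 10 d, each with and without the head and each with 3 libraries, so that no library serves in more than 1 of the 4 leaf comparisons. Levels are in TPM, a transcript abundance scaled to transcript length and to the library total.

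A head filling with grain is a strong sink, and a leaf below it is a source that exports sucrose through the phloem. Removing the head takes away that sink and also wounds the stalk. Jasmonate is the plant hormone best known for wound and herbivore responses. In Arabidopsis its active form, the isoleucine conjugate, makes JAZ proteins stick to the receptor COI1 and be degraded. JAZ proteins otherwise hold down MYC-type bHLH transcription factors, and MYC factors in turn switch on JAZ genes, so that JAZ transcripts are widely used as a readout of the pathway. In grasses jasmonate is also known for raising volatile terpenoids, indole and protective proteins.

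Marker genes of leaf cell types were measured in both groups, with no other tissue set beside them. Mesophyll markers, which carry the first carbon fixation of a C4 leaf, summed to 25463 to 29121 TPM in the 3 controls and 19066 to 26375 TPM in the 3 decapitated libraries. Bundle sheath markers, the enzymes of the inner ring of cells where the Calvin cycle runs, summed to 4991 to 6541 and 3943 to 4433 TPM, and 0 of the 13 mesophyll and 0 of the 10 bundle sheath genes passed the test. In bulk leaf a lower value can come from fewer cells of a type or from less RNA per cell, and the 2 cannot be told apart.

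The 3 decapitated libraries did not stand at 1 distance from the controls. On the first principal component of the 24 leaf libraries, which held 40.5% of the variance of the 500 most variable genes, controls replicates 2, 3 and 4 were at -34.8, -25.4 and -3.18, and decapitated replicates 2, 3 and 4 at 33.0, 45.1 and 9.94. Decapitated replicate 4 therefore lay between control replicate 4 and its own replicates 2 and 3. Over all genes, the root mean square difference in log2(TPM + 1) was 0.384 between decapitated replicate 4 and control replicate 4, smaller than its 0.532 from decapitated replicate 2 and 0.554 from replicate 3. Decapitated replicates 2 and 3 were 0.443 apart.

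**Figure D1:**
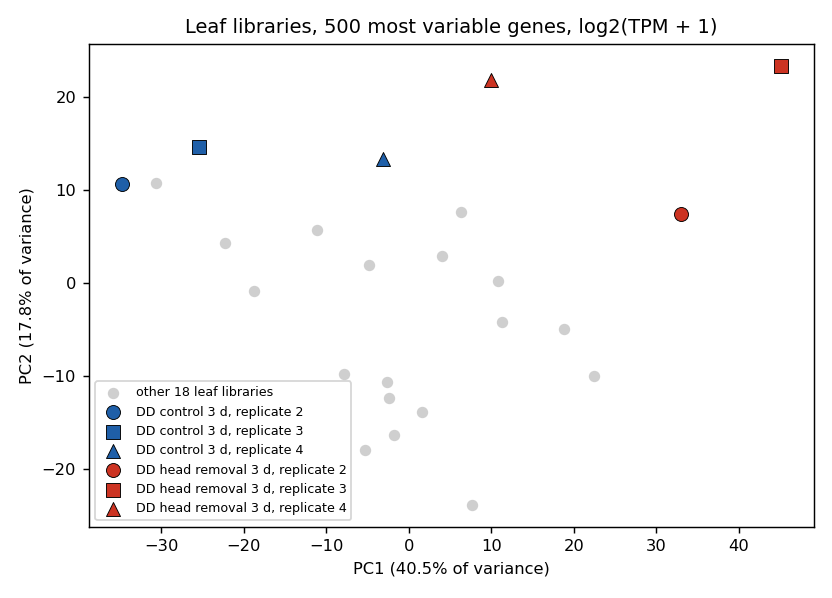
The 24 leaf libraries on the first and second principal components of the 500 most variable genes (log2(TPM + 1), centred; axis labels give the percent of variance), with DD controls at 3 d in blue, DD head removal at 3 d in red and the other 18 libraries in grey. The 6 libraries do not overlap between groups on the first axis, and replicate 4 of either group is the one nearest to the other group.

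The same order was seen gene by gene. Genes at least 1 log2 unit above all 3 controls numbered 656 in decapitated replicate 2, 776 in replicate 3 and 233 in replicate 4, and those at least 1 log2 unit below numbered 392, 492 and 71. These 3 libraries were nonetheless no more scattered than other groups: the median distance within the group was 0.532, in a range of 0.422 to 0.591 over the 8 leaf groups. The main counts are therefore also given with libraries left out one by one.

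In all, 940 genes passed the limma test at an adjusted p under 0.05, of which 521 rose and 419 fell, or 3.18% and 2.56% of the genes tested (5.74% together). The authors kept a gene where at least 2 leaf libraries passed 3 TPM, and 65 of the 521 risen genes were kept only through the 3 decapitated libraries, as were 90 of all genes. Such a gene had to be higher there to be in the table, so its test is not independent of that filter. Of the 419 fallen genes, 8 were kept only through the controls. The risen genes moved further: their median log2 fold change was 1.70 and that of the fallen genes -0.96. At the stricter threshold used in the study, an adjusted p under 0.01 and at least 1 log2 unit, 121 genes were DEGs (0.738%), 98 of them higher (0.598%) and 23 lower (0.14%) after head removal. With library scaling by the median of ratios, 641 rose and 331 fell, so the split moved from 55.4% to 65.9% higher.

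These counts depended on single libraries. Without decapitated replicate 2, 315 genes passed; without decapitated replicate 3, 55; without decapitated replicate 4, 1875. Without control replicate 2, 104 passed, without control replicate 3, 138, and without control replicate 4, 1161. Of the 940 genes, 53 passed in all 6 of these fits as well, 46 higher and 7 lower. Some of the 46 were in the table only through the decapitated libraries, so their tests are not independent of that filter. Fitted without the other 18 leaf libraries, the 6 gave 282 genes and 0 DEGs. With decapitated replicate 4 alone against the 3 controls, its group had no spread of its own, so calls from that fit are not given. The risen genes had a median difference from the control mean of 1.61, 2.18 and 1.22 in decapitated replicates 2, 3 and 4. Over all genes it was 0.03, -0.10 and -0.0002. Of the 940 genes, 917 had groups that did not overlap, against 31.6% of all genes. These genes were chosen by a test that used the same 6 libraries, replicate 4 included. The shared direction and the lack of overlap are therefore not independent evidence of a response in replicate 4.

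Several of the highest changes were in genes outside the pathways described below. The highest of the named genes, Sobic.005G102300, was at 0.510, 0.718 and 14.5 TPM in control replicates 2, 3 and 4 and at 165, 783 and 36.9 TPM in decapitated replicates 2, 3 and 4 (log2 fold change 5.63 ± 1.44 SE, adjusted p = 0.0296). Its groups were apart by little in replicate 4, and its call was kept in 2 of the 6 fits with a library left out. Sobic.001G488000, described as similar to a leucine zipper protein, was abundant: 20.9, 38.7 and 169 TPM in controls and 1495, 3071 and 711 TPM after head removal (4.81 ± 1.21, adjusted p = 0.0282). Sobic.001G481100, with an FCS-type zinc finger, was at 0.130, 1.02 and 4.03 TPM and then at 45.7, 97.6 and 19.4 TPM (4.33 ± 0.86, adjusted p = 0.00914), and Sobic.008G136500, described as a flavonoid hydroxylase, at 0.636, 4.05 and 14.7 TPM and then at 77.7, 159 and 64.8 TPM (4.21 ± 0.93, adjusted p = 0.0159). In all 4 genes replicate 4 was the highest control and the lowest decapitated library.

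**Figure D2:**
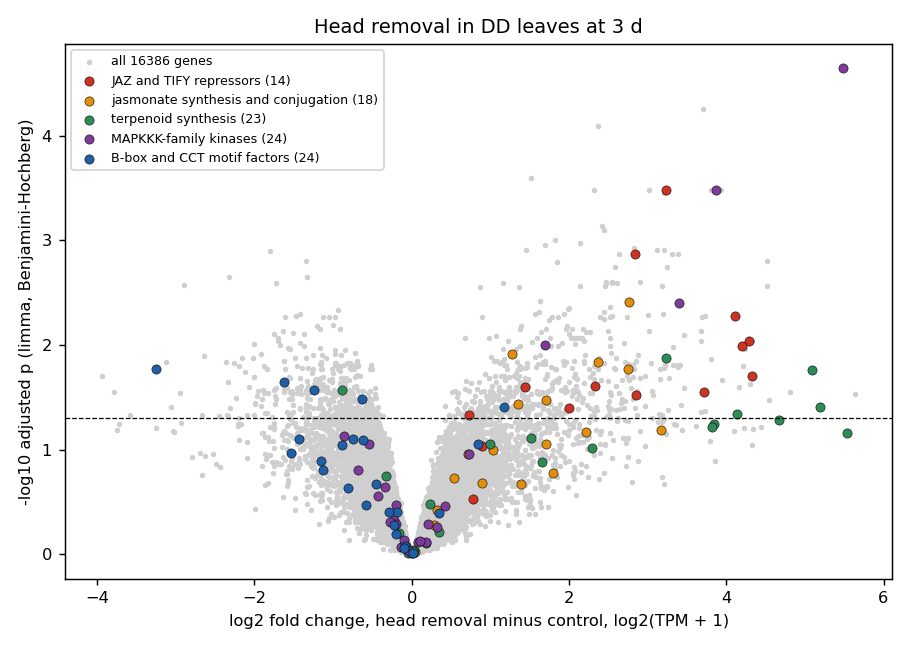
Log2 fold change (head removal minus control, log2(TPM + 1)) against -log10 of the adjusted p for all 16386 genes in grey, with 5 gene lists in colour and the threshold of 0.05 as a dashed line. JAZ and TIFY genes (red) lie on the right with 12 of 14 above the line, MAPKKK-family kinases (purple) include the gene with the smallest adjusted p, and 4 of the 24 B-box and CCT genes (blue) lie above the line on the left.

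Of the 37 gene lists, the JAZ and TIFY genes, the repressors of jasmonate signalling, had the largest share that rose. Of 14 measured members 12 rose and 0 fell, against 3.18% of all genes, and in 13 of the 14 all 3 decapitated values were above all 3 control values, against 13% of all genes. Their median log2 fold change was 2.84, beside -0.03 for all genes. The list was drawn up after these values were seen, and 2 of its 14 genes were kept in the table only through the decapitated libraries. Summed over the 14 genes, the controls were at 1028, 1434 and 2388 TPM in replicates 2, 3 and 4, and the decapitated leaves at 4991, 8245 and 4228 TPM. The other 21 leaf libraries, the 3 controls included, reached 941 to 2804 TPM, and 0 of them reached the lowest decapitated library.

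Values of single genes are given below in TPM in the order of replicates 2, 3 and 4, controls first. The JAZ gene with the widest gap at a high level was Sobic.001G482600, with 8.76, 56.3 and 109 TPM in controls and 636, 881 and 559 TPM after head removal. Its groups were far apart, and in this gene decapitated replicate 4 was close to replicates 2 and 3. Its log2 fold change was 4.11 ± 0.74 (SE; adjusted p = 0.00532). Its neighbour by number, Sobic.001G482700, was at 1.70, 4.19 and 12.8 TPM and then at 101, 278 and 49.5 TPM (4.29 ± 0.85, adjusted p = 0.00914). Here replicate 4 was highest among the controls and lowest among the decapitated leaves.

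A run of 3 JAZ genes with adjacent numbers was low in control leaves. Sobic.001G259900 was at 0, 0.401 and 1.36 TPM in controls and 18, 106 and 12.3 TPM after head removal (4.33 ± 1.00, adjusted p = 0.0198). Sobic.001G259700 went from 1.08, 3.67 and 9.95 TPM to 62.8, 151 and 67.6 TPM (4.20 ± 0.85, adjusted p = 0.0101). Sobic.001G259600 was at 0.175, 0.271 and 1.15 TPM and then at 9.51, 20.0 and 11.3 TPM (3.24 ± 0.41, adjusted p = 0.000329). This last gene had the tightest replicates of the 3 and passed in all 6 fits with a library left out, but it was kept in the table only through the decapitated libraries. How reads shared between such copies were assigned is not given in the sources used here, so the split of level among neighbours is uncertain.

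The remaining JAZ and TIFY genes, named after their values were seen, included both low and abundant members. Sobic.002G036100 was at 0.0456, 0.353 and 0.445 TPM in controls and 7.56, 17.8 and 3.64 TPM after head removal (2.84 ± 0.42, adjusted p = 0.00134), and it too passed in all 6 fits and was kept only through the decapitated libraries. The most abundant members, Sobic.001G343900 and Sobic.002G374100, were at 215 to 684 TPM and 169 to 544 TPM in controls and at 1184 to 2291 TPM and 948 to 2329 TPM after head removal. Sobic.002G214800 (3.71), Sobic.006G056400 (2.85), Sobic.007G132700 (1.44) and Sobic.006G244800 (0.73) completed the 12 that rose, with log2 fold changes in parentheses. The pair that did not pass was Sobic.002G196200 (0.89, adjusted p = 0.0927, groups apart) and Sobic.003G410300 (0.78, adjusted p = 0.294, groups overlapping).

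**Figure D3:**
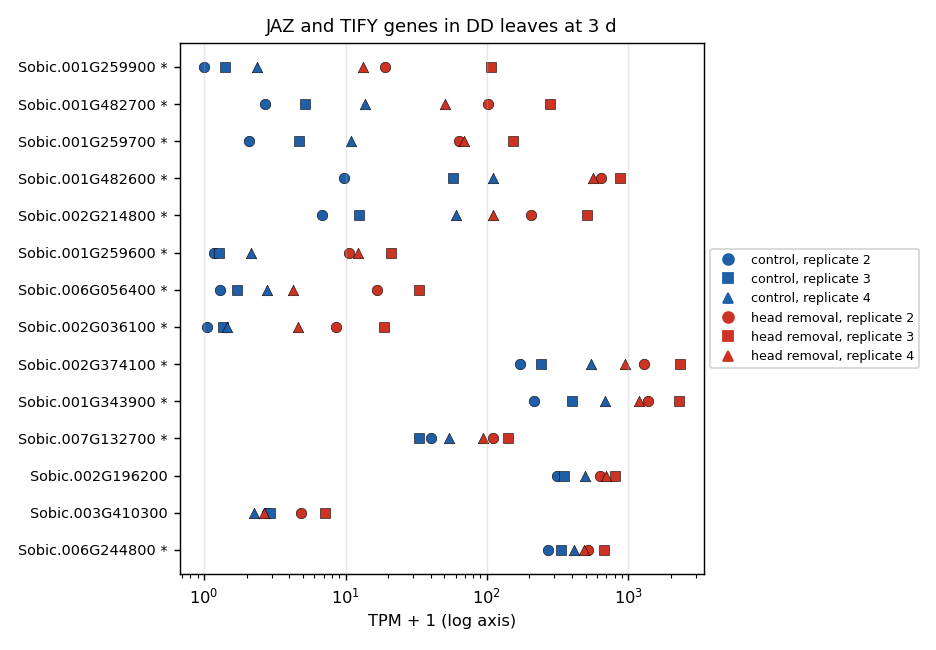
TPM + 1 on a log axis of the 14 JAZ and TIFY genes in the 6 libraries, controls in blue and head removal in red, with circles, squares and triangles for replicates 2, 3 and 4 and an asterisk for genes past the test. In 13 of the 14 genes every red point lies to the right of every blue point.

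As with the whole table, the number of JAZ and TIFY genes called moved with single libraries. It was 6 without decapitated replicate 2, 2 without replicate 3 and 12 without replicate 4. It was 3, 5 and 12 without control replicates 2, 3 and 4. The median difference from the control mean over the 14 genes was 2.79, 3.86 and 1.81 in decapitated replicates 2, 3 and 4.

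Genes described as MYC-family factors rose in 2 of 8 members, against 3.18% of all genes, and fell in 0. The descriptions do not say which of them are partners that JAZ proteins restrain. This list too was drawn up after values were seen. The number that rose was 1 without any one of replicates 2 and 3 of either group. Sobic.007G051800, described as related to bHLH27, was at 6.76, 41.5 and 91.7 TPM in controls and 616, 1294 and 480 TPM in decapitated leaves (4.54 ± 1.19, adjusted p = 0.0336). Its groups did not overlap, and the highest of the other 21 leaf libraries was at 213 TPM. Its call was kept in 2 of the 6 fits with a library left out. The lower Sobic.003G272200 went from 0.450, 1.39 and 2.29 TPM to 12.1, 25.4 and 10.9 TPM (2.83 ± 0.41, adjusted p = 0.00119) and kept its call in all 6, but it was in the table only through the decapitated libraries. The 6 other members, with adjusted p of 0.198 to 0.917, included abundant genes such as Sobic.007G183100, at 41.8 to 97.4 TPM in controls and 31.3 to 51.8 TPM after head removal.

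Enzymes that make or modify jasmonate rose in 6 of 18 members and fell in 0, against 3.18% and 2.56% of all genes, with a median log2 fold change of 1.37. The list was drawn up after values were seen, so these shares are no independent test. The pathway starts from a fatty acid that a lipoxygenase oxidizes, passes through allene oxide synthase, allene oxide cyclase and a reductase (OPR), and ends with conjugation to isoleucine by JAR1-type synthetases. At the first step the lipoxygenase gene Sobic.006G095600 was at 11.8, 17.2 and 23.1 TPM in controls and 31.7, 57.1 and 41.1 TPM after head removal (1.28 ± 0.26, adjusted p = 0.0121). At the second, the hydroperoxide dehydratase gene Sobic.001G077400 went from 1.81, 3.42 and 8.54 TPM to 21.7, 54.2 and 29.0 TPM (2.77 ± 0.47, adjusted p = 0.00385), and it was the 1 enzyme of the list called in all 6 fits. These genes thus marked the entry of the pathway at low to moderate levels.

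The later steps followed in the same direction. The single allene oxide cyclase gene, Sobic.001G329800, was at 7.94, 10.3 and 19.3 TPM and then at 32.1, 78.8 and 26.1 TPM (1.71 ± 0.45, adjusted p = 0.0337). The JAR1-type gene Sobic.003G224100, of the conjugating step, was at 15.1, 16.5 and 28.2 TPM and then at 67.7, 282 and 56.5 TPM (2.36 ± 0.51, adjusted p = 0.0146). The jasmonate O-methyltransferase gene Sobic.009G000900, for the volatile methyl ester, rose by 2.75 (adjusted p = 0.0171) and the reductase gene Sobic.007G151100 by 1.35 (adjusted p = 0.0365). In each of the 4, decapitated replicate 3 was the highest library.

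At the same step as Sobic.001G077400, the allene oxide synthase gene Sobic.001G449700 did not pass although its groups were apart. It was at 15.8, 12.2 and 48.6 TPM in controls and 94.1, 729 and 114 TPM after head removal (3.17 ± 1.00, adjusted p = 0.0642). Decapitated replicate 3 was far above the other decapitated libraries. The list summed to 787 to 2382 TPM in decapitated leaves, and 1 of the other 21 leaf libraries was above the lowest of these. The number of genes of the list that rose was 4, 1 and 9 without decapitated replicates 2, 3 and 4, and 1, 1 and 8 without control replicates 2, 3 and 4.

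**Figure D4:**
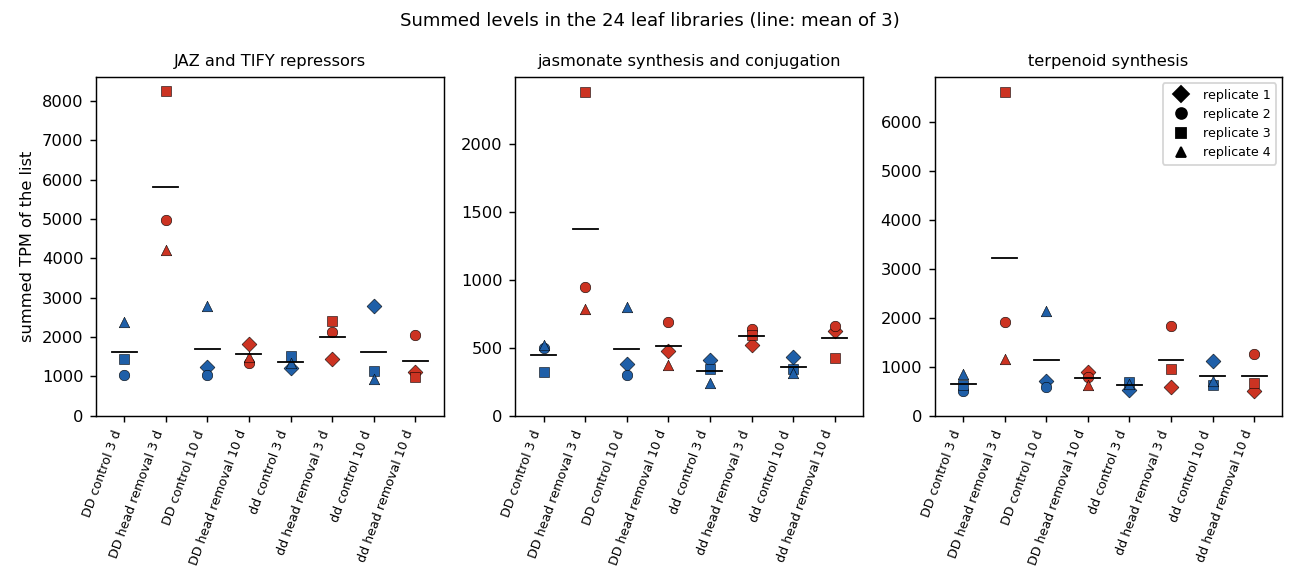
Summed TPM of the JAZ and TIFY genes, the jasmonate enzymes and the terpenoid enzymes in the 24 leaf libraries by group (blue control, red head removal, line at the mean of 3, marker shape for the replicate number). Equal numbers were not treated as pairs. JAZ and TIFY sums of the 3 decapitated DD libraries at 3 d, 4228 to 8245 TPM, lie above all 21 others, and replicate 3 is the highest library in all 3 panels.

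Among terpenoid enzymes 4 of 23 rose and 1 fell, against 3.18% and 2.56% of all genes, with a median of 1.00. This list was likewise drawn up after values were seen. The number that rose was 1, 0 and 11 without decapitated replicates 2, 3 and 4 and 0, 0 and 6 without control replicates 2, 3 and 4. The risen genes covered the supply of precursors and the terpene synthases themselves. Sobic.002G064500, which encodes the entry enzyme of the plastid isoprenoid pathway (deoxyxylulose phosphate synthase), was at 2.52, 2.76 and 20.9 TPM in controls and 200, 697 and 80.0 TPM after head removal (5.09 ± 1.15, adjusted p = 0.0174). Sobic.006G027500, described as an alpha-terpineol synthase, was at 0.912, 3.29 and 18.6 TPM and then at 218, 1000 and 34.5 TPM (5.19 ± 1.41, adjusted p = 0.0391). In both genes replicate 4 was the highest control and the lowest decapitated library.

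The third, Sobic.006G211400, of the class that makes geraniol- and nerolidol-type alcohols, was at 1.46, 5.79 and 26.8 TPM and then at 118, 441 and 46.5 TPM (4.13 ± 1.18, adjusted p = 0.0455). In the cytosolic branch, the hydroxymethylglutaryl-CoA reductase gene Sobic.007G207600 rose by 3.23 (adjusted p = 0.0134) while another gene for that enzyme, Sobic.002G250400, went from 9.68, 9.41 and 8.43 TPM to 3.42, 4.4 and 6.04 TPM and fell by 0.88 (adjusted p = 0.0269). Thus 2 genes of 1 enzyme moved in opposite directions. Neither terpene synthase was called without decapitated replicates 2 or 3 or without control replicates 2 or 3. For Sobic.006G027500, 9 of the other 21 leaf libraries were above its lowest decapitated value.

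Indole and related enzymes rose in 2 of 19 members, against 3.18% of all genes. The number was 1, 0 and 5 without decapitated replicates 2, 3 and 4 and 0, 0 and 2 without control replicates 2, 3 and 4. The indole and dhurrin lists were drawn up after values were seen. Sobic.001G056500, of the indole glycerol phosphate lyase type that in maize releases indole, was at 0.333, 0.570 and 1.51 TPM in controls and 28.4, 73.0 and 15.5 TPM after head removal (4.24 ± 0.86, adjusted p = 0.0108). Sobic.007G003400, a cytochrome P450 gene described as an indolinone monooxygenase, went from 183, 427 and 595 TPM to 1048, 1890 and 810 TPM (1.70 ± 0.40, adjusted p = 0.0212). Both sets of values were without overlap. Of the 3 genes of dhurrin, the cyanogenic glucoside of sorghum, 0 passed and all overlapped between groups, with a median log2 fold change of 2.45. They summed to 90.5, 132 and 725 TPM in controls and 1375, 1941 and 469 TPM in decapitated leaves.

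Proteinase inhibitors, classical wound-induced proteins, rose in 1 of 23 members, near the 3.18% of all genes. The number was 2 without replicate 4 of either group and 0 without any other library of the 6. The gene was Sobic.003G355800 of the Bowman-Birk family (84.7, 70.8 and 234 TPM to 645, 1313 and 331 TPM; 2.53 ± 0.70, adjusted p = 0.0405). The median of the 23, listed after values were seen, was 0.73. A gene described as a wound-induced protein, Sobic.002G338300, moved the other way, from 47.2, 21.2 and 16.3 TPM to 2.02, 2.20 and 6.57 TPM (-2.66 ± 0.76, adjusted p = 0.0461). The chlorophyllase gene Sobic.007G168000, whose enzyme cuts the tail from chlorophyll, went from 0.371, 1.08 and 6.01 TPM to 38.3, 280 and 13.0 TPM (4.31 ± 1.03, adjusted p = 0.0237).

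The gene with the smallest adjusted p of the whole table encodes a kinase. Sobic.009G217500, described as a mitogen-activated protein kinase kinase kinase (MAPKKK) family member, the type that heads a signalling cascade, was at 0.111, 0.277 and 0.848 TPM in controls and 30.4, 133 and 55.8 TPM after head removal. Every decapitated library was far above every control, replicate 4 included. Its log2 fold change was 5.49 ± 0.51 (adjusted p = 2.27e-05), and 5.36 with decapitated replicate 4 alone. Another 3 of the 24 genes of this family rose, and 0 fell: Sobic.003G268900 from 0.477, 1.68 and 3.27 TPM to 25.6, 43.6 and 43.6 TPM (3.87 ± 0.49, adjusted p = 0.000329), Sobic.009G217600 by 3.39 and Sobic.003G268700 by 1.69. These last 2 were kept in the table only through the decapitated libraries. Of all genes 3.18% rose, and the family was listed after values were seen. These 4 genes form pairs by number, 009G217500 with 009G217600 and 003G268700 with 003G268900, while the median of the 24 was -0.03, the same as for all genes. The number called was 3 or 4 in each fit with a library left out.

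Calcium sensors, the EF-hand proteins that read calcium signals, rose in 5 of 34 members and fell in 1, against 3.18% and 2.56% of all genes, with a median of 0.51. Of the 34, 1 was kept in the table only through the decapitated libraries. Sobic.009G120800 was at 1.36, 2.48 and 4.72 TPM in controls and at 32.3, 31.9 and 29.3 TPM after head removal (3.15 ± 0.71, adjusted p = 0.0171). Its 3 decapitated values were nearly equal, but the other 21 leaf libraries reached 131 TPM, and 2 were above its lowest decapitated value. Sobic.001G393500 went from 15.4, 49.1 and 61.9 TPM to 199, 246 and 197 TPM (2.52 ± 0.44, adjusted p = 0.00431) and passed in all 6 fits. The receptor kinase gene Sobic.006G163401, at 0.122, 0.436 and 0.911 TPM in controls, was likewise even after head removal at 5.93, 7.58 and 6.19 TPM (2.37 ± 0.26, adjusted p = 8.03e-05). None of the other 21 leaf libraries exceeded 1.57 TPM for it, so the gene was in the table only through the decapitated libraries and its test is not independent of the filter.

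Among transcription factors, AP2 and ethylene-response factors rose in 7 of 27 members and fell in 0, NAC factors rose in 7 of 38 and fell in 1, WRKY factors rose in 5 of 44 and fell in 1, and MYB factors split 3 and 3 of 37. Of all genes 3.18% rose and 2.56% fell. The medians of the 4 lists were 0.40, -0.14, 0.15 and -0.21. Of the 44 WRKY factors, 2 were kept in the table only through the decapitated libraries, the risen Sobic.010G209100 among them. The NAC gene Sobic.001G040200 was at 27.5, 40.1 and 52.1 TPM in controls and 237, 469 and 293 TPM after head removal (3.01 ± 0.37, adjusted p = 0.000328). No other leaf library exceeded 142 TPM for it, and it passed in all 6 fits. Sobic.009G142200, also NAC, had the larger change (3.67 ± 0.73, adjusted p = 0.00914) but a wide spread, 122, 306 and 23.8 TPM against 5.59, 5.26 and 9.90 TPM.

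The WRKY gene Sobic.004G065900 was at 21.7, 31.8 and 56.4 TPM in controls and 124, 269 and 215 TPM after head removal (2.47 ± 0.40, adjusted p = 0.00254). The AP2 gene Sobic.006G210300 was at 3.82, 6.32 and 15.4 TPM and then at 41.5, 71.8 and 55.4 TPM (2.75 ± 0.60, adjusted p = 0.0151). In both, decapitated replicate 2 was the lowest of its group, not replicate 4. For Sobic.006G210300 the other 21 leaf libraries reached 154 TPM, and 5 were above its lowest decapitated value. The MYB gene Sobic.006G148000 rose from 0.466, 0.890 and 1.16 TPM to 6.17, 12.7 and 6.50 TPM (2.31 ± 0.29, adjusted p = 0.000328). It too was kept only through the decapitated libraries, the others reaching 2.51 TPM at most. The MYB gene Sobic.005G224800 went from 63.4, 65.9 and 46.4 TPM to 13.3, 14.4 and 26.1 TPM (-1.70 ± 0.33, adjusted p = 0.0085).

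Cytochrome P450 genes, a large family of oxygenases in hormone and defence metabolism, rose in 12 of 47 members and fell in 1, against 3.18% and 2.56% of all genes. Of the 47, 1 was kept in the table only through the decapitated libraries. Within this list, drawn from the descriptions and without Sobic.008G136500, the largest changes were Sobic.005G109000 (3.81 ± 0.81, adjusted p = 0.0136) and Sobic.001G195100, at 5.31, 9.17 and 27.1 TPM in controls and 144, 276 and 93.8 TPM after head removal (3.68 ± 0.70, adjusted p = 0.00726). Sobic.008G036000 and Sobic.002G388800 were low in controls, at 0.583 to 1.56 and 1.19 to 3.73 TPM, and reached 14.1 to 25.1 and 18.8 to 53.4 TPM. Both passed in all 6 fits. Heat shock proteins and factors, chaperones of protein folding, rose in 7 of 68 members and fell in 0, against the same shares of all genes, led by the small heat shock protein gene Sobic.004G228900 (27.9, 75.5 and 51.5 TPM to 543, 440 and 232 TPM; 2.97 ± 0.80, adjusted p = 0.038). For that gene the other 21 leaf libraries reached 921 TPM, and 10 were above its lowest decapitated value.

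The counts of these families were smaller without decapitated replicate 3: 3 P450, 2 NAC, 1 WRKY, 0 AP2, 1 calcium sensor and 0 heat shock genes rose. Without control replicate 2 the numbers were 3, 2, 1, 0, 3 and 0, and without control replicate 3 they were 5, 4, 2, 1, 3 and 0. Without decapitated replicate 2 they were 7, 6, 4, 3, 3 and 1, and without decapitated replicate 4 they were 13, 8, 7, 7, 9 and 10.

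**Figure D5:**
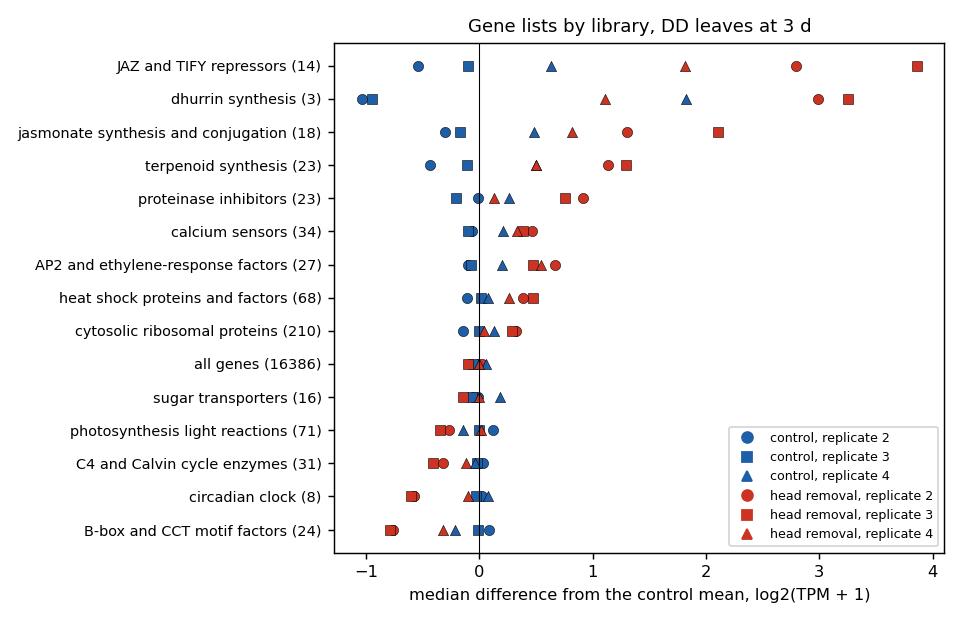
Median over each gene list (number of genes in parentheses) of the difference from the control mean in log2(TPM + 1), for each of the 6 libraries; blue control, red head removal, circles, squares and triangles for replicates 2, 3 and 4. JAZ and TIFY genes stand at 2.79, 3.86 and 1.81 in the decapitated libraries, dhurrin genes overlap, control replicate 4 being above decapitated replicate 4, and B-box and clock genes lie below 0 in all 3 decapitated libraries.

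Among the genes that fell, the dormancy and auxin associated gene Sobic.007G148200, of a class abundant in resting buds, was at 162, 108 and 68.5 TPM in controls and 11.5, 9.16 and 22.8 TPM after head removal (-2.89 ± 0.47, adjusted p = 0.00266), and it passed in all 6 fits. B-box and CCT factors, zinc-finger proteins of light and flowering-time control, fell in 4 of 24 members and rose in 1, against 2.56% and 3.18% of all genes, with a median of -0.60. The gene that rose, Sobic.004G301000, was kept in the table only through the decapitated libraries. The list was drawn up after values were seen. Sobic.010G108500 was at 37.0, 11.4 and 9.88 TPM in controls and 0.253, 0.394 and 2.41 TPM after head removal (-3.25 ± 0.73, adjusted p = 0.017). The more abundant Sobic.001G118100 went from 857, 522 and 469 TPM to 130, 144 and 376 TPM (-1.62 ± 0.39, adjusted p = 0.0227). Without decapitated replicate 2, 2 of these genes fell, and without decapitated replicate 3, control replicate 2 or control replicate 3, 0 fell. Without decapitated replicate 4, 10 fell.

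The licheninase gene Sobic.009G119200, for an enzyme that digests the mixed-linkage glucan of grass cell walls, had the most negative change of the named genes, from 424, 178 and 45.8 TPM to 12.4, 7.88 and 16.3 TPM (-3.58 ± 1.03, adjusted p = 0.0462). Its 3 controls were themselves widely spread. Of abscisic acid genes, 3 of 52 rose and 2 fell, near the 3.18% and 2.56% of all genes, and from 1 to 6 rose with 1 library left out. The pair that fell was Sobic.004G268500 (1905, 1489 and 1556 TPM to 522, 379 and 767 TPM; -1.62 ± 0.35, adjusted p = 0.0143) and the PYL receptor gene Sobic.004G113800 (157, 127 and 128 TPM to 75.2, 47.6 and 86.6 TPM; adjusted p = 0.0064). Both had controls tightly grouped and above all decapitated libraries. The description of Sobic.004G268500 names an epoxycarotenoid dioxygenase, of the step that limits abscisic acid synthesis, and also a zeaxanthin cleavage dioxygenase. It does not settle which of these the gene encodes.

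No photosynthesis gene and few sugar genes passed. None of the 71 light-reaction genes, 31 C4 and Calvin cycle genes, 16 sugar transporters or 8 clock genes passed; their medians were -0.23, -0.31, -0.02 and -0.42, beside -0.03 for all genes. In 4 of the 8 clock genes all decapitated values were below all controls, against 18.6% of all genes. The same held for 10 of the 31 C4 and Calvin cycle genes and 6 of the 71 light-reaction genes. All were above in 0, 1 and 4 of these lists' genes, against 13% of all genes. The light-reaction median stood -0.27, -0.34 and 0.02 from the control mean in decapitated replicates 2, 3 and 4. In sucrose metabolism, the gene Sobic.005G089600, described as a sucrose phosphate synthase family member, went from 310, 281 and 227 TPM to 115, 82.9 and 167 TPM (-1.20 ± 0.29, adjusted p = 0.0248), and the beta-amylase gene Sobic.001G293800, of starch breakdown, fell by 1.35 (adjusted p = 0.0396). In starch metabolism the isoamylase 1 gene Sobic.007G204600 rose by 0.80 (limma adjusted p = 0.0493). A beta-fructofuranosidase (invertase) gene, Sobic.006G160700, which splits sucrose, rose by 1.45 (adjusted p = 0.0377).

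SbSWEET13A, SbSUT1, SbCIN5 and SbSWEET1A, 4 of the sugar genes the study names, did not pass. SbSWEET13A (Sobic.008G094000), a sucrose exporter, was at 1875, 1710 and 1612 TPM in controls and 1197, 1381 and 1340 TPM after head removal (-0.41 ± 0.18, adjusted p = 0.167). Its groups were apart, but 18.6% of all genes lay below in the same way. SbSUT1 (Sobic.001G488700), the sucrose transporter of phloem loading, was at 557, 545 and 560 TPM and then at 508, 478 and 566 TPM (-0.10 ± 0.15, adjusted p = 0.686). SbCIN5 (Sobic.004G163800) and SbSWEET1A (Sobic.003G377700) overlapped between groups, with log2 fold changes of 0.29 and 0.03.

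How far the response at 3 d in DD leaves differed from that at 10 d or in dd leaves was tested by interaction contrasts of the same fit. By itself, head removal in DD leaves at 10 d gave 0 genes past the limma test (1655 at an unadjusted p under 0.05, against 3998 at 3 d), in dd leaves at 3 d it gave 13 (0.0793%), and in dd leaves at 10 d 167 (1.02%). The 521 genes that rose in DD leaves at 3 d had medians of 0.19, 0.49 and 0.24 in these 3 comparisons, and the 419 that fell had -0.26, -0.31 and -0.30. These genes were chosen by their change at 3 d in DD leaves, so smaller medians elsewhere follow in part from that choice. The JAZ and TIFY list had medians of 0.15 in DD leaves at 10 d, 0.90 in dd leaves at 3 d and 0.37 in dd leaves at 10 d.

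The difference itself passed for few genes: 3 against DD leaves at 10 d and 3 against dd leaves at 3 d (0.0183% of the genes in either case). Sobic.009G217500, the MAPKKK-family gene, passed in both. Its levels were 0.218, 0.559 and 3.23 TPM in DD controls at 10 d (replicates 1, 2 and 4) and 1.22, 0.491 and 3.47 TPM in DD decapitated leaves at 10 d, so its effect was 5.20 ± 0.72 log2 units larger at 3 d (adjusted p = 0.0119). In dd leaves at 3 d it was at 0.118, 0.720 and 0.239 TPM in controls and 2.10, 0.296 and 2.18 TPM after head removal, and the effect in DD was 4.68 ± 0.72 larger (adjusted p = 0.0467). No leaf library other than the 3 decapitated DD libraries at 3 d was above 4.08 TPM.

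Another 2 genes separated 3 d from 10 d in DD leaves. The amino acid transporter family gene Sobic.003G207900 was at 0.438, 1.38 and 2.72 TPM in controls and 18.3, 72.3 and 31.4 TPM after head removal at 3 d (3.94 ± 0.49, adjusted p = 0.000329), while none of the other 21 leaf libraries exceeded 4.15 TPM and 1 passed 3 TPM. Its effect was 4.33 ± 0.70 larger at 3 d (adjusted p = 0.0295). For the receptor kinase gene Sobic.006G163401 the effect was 2.35 ± 0.36 larger (adjusted p = 0.0238). Both genes were in the table only through the decapitated DD libraries at 3 d, so neither test is independent of that filter. No JAZ, MYC or jasmonate enzyme gene passed either interaction.

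Against dd leaves at 3 d, a pair of genes besides the kinase passed. Sobic.001G541400, described as a hydrophobic seed protein family member, was at 0.594, 0.422 and 0.258 TPM in DD controls and 3.85, 2.37 and 3.05 TPM in DD decapitated leaves at 3 d, and was listed at 0 in all 6 dd libraries at 3 d (difference of effects 1.51 ± 0.25, adjusted p = 0.0467). It too was kept only through the decapitated DD libraries at 3 d, the other 21 reaching 2.74 TPM at most, so this test is not independent of the filter. Sobic.004G075000 has no function in its description and was named after its values were seen. It went from 16.9, 7.76 and 9.33 TPM to 3.07, 1.71 and 2.51 TPM in DD leaves (-1.80 ± 0.27, adjusted p = 0.00126), and its effect was 2.27 ± 0.37 lower than in dd leaves (log2 difference -2.27, adjusted p = 0.0467). These counts of 3 ranged from 0 to 19 against DD leaves at 10 d and from 0 to 4 against dd leaves at 3 d with 1 library left out. Both were 0 without control replicate 2 or control replicate 3. They were 3 and 1 without decapitated replicate 2, 1 and 0 without decapitated replicate 3, 19 and 4 without decapitated replicate 4, and 7 and 0 without control replicate 4. With a pseudocount of 0.1 in place of 1, 0 genes passed either test.

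In DD stems at 3 d, the inner tissue of an internode, 967 of 16942 genes passed (5.71%). Stems had replicates 1 to 4 in either group, more than the leaves, so the stem and leaf shares are not on equal terms. Of the 940 leaf genes 683 were in the stem table, where 64 passed and 359 had the same sign as in the leaf, with a median of -0.05. The 7 JAZ and TIFY genes measured in stems had a median of -0.28, and Sobic.001G482600 was at 0.36 (adjusted p = 0.671) there. The hydroperoxide dehydratase gene Sobic.001G077400, which rose in leaves, had a log2 fold change of -1.08 in stems (adjusted p = 0.00849). The difference between organs was not tested.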

How the data were processed

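The authors deposited TPM, keeping a gene where 2 or more libraries of an organ passed 3 TPM, 16386 genes in 24 leaf libraries and 16942 in 29 stem libraries; the labels title them biological replicates. Per the labels, RNA was extracted with TRIzol, libraries were made with the KAPA mRNA Hyper Prep kit, and FastQC, Trimmomatic, STAR and DESeq2 were used. Versions, strand setting and genome build are not given in the sources used here. TPM keeps no sequencing depth: leaf columns sum to 994771 to 995806, so precision is known only from the spread between libraries. Sheets of the authors' own comparisons (fold changes and p-values per factor, clusters and overlaps of DEGs) were not used. Columns were matched to samples by title, and 0 value columns were left unused; 8 of 32 leaf samples were not analysed here.

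All 24 leaf libraries were fitted in limma 3.58.1 (R 4.3.3) as 8 group means on log2(TPM + 1), with a trend of variance on mean; fold changes on this scale understate those of low genes. Adjusted p values are two-sided, by Benjamini and Hochberg over all 16386 genes; 3 against 3 libraries allow an exact permutation p of 0.1 at the lowest, so such p-values are not reported. The fit was tested on simulated data with noise independent between genes and libraries. No shift of a whole library was simulated, so that test does not cover the dependence on single libraries. Stems were fitted alike on their own. The labels do not say whether equal replicate numbers pair libraries, and the main fit did not pair them. Deviations from the group means correlated by 0.04, -0.21 and -0.45 between equal numbers. With 3 libraries per group these values cannot show whether numbers were paired.

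Genes were named by rule: the 15 highest and 15 lowest changes past the test without overlap and with a described function, up to 4 of the largest per list, 4 of the sugar genes the study names, and up to 4 per interaction. The 37 lists come from patterns on the deposited descriptions, some of which may mislead. The comparison, members and lists were chosen with earlier results of these data known, and the JAZ and TIFY, jasmonate, MYC, MAPKKK, terpenoid, indole, dhurrin, proteinase inhibitor and B-box lists after values were seen. Alternatives were the pseudocount, a filter on low values, scaling, variance settings, library weights, the 6 libraries alone, a replicate block, and libraries left out.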

Additional observations from a re-analysis of the deposited data

Results flagged for a closer look

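Each of these results was picked out because the effect of head removal in DD leaves at 3 d differed from that in another pair of leaf groups by the interaction test in limma. Against DD leaves at 10 d, the effect was larger by 5.20 log2 units for the MAPKKK-family gene Sobic.009G217500, by 4.33 for the amino acid transporter family gene Sobic.003G207900 and by 2.35 for the receptor kinase gene Sobic.006G163401. Against dd leaves at 3 d, the effect on Sobic.009G217500 was larger by 4.68 and that on Sobic.001G541400, of the hydrophobic seed protein family, by 1.51, and for Sobic.004G075000, which has no described function, the difference was -2.27. Sobic.003G207900, Sobic.006G163401 and Sobic.001G541400 were in the table only through the decapitated DD libraries at 3 d, so their tests are not independent of the filter on low values. Of the 5 genes, each kept its call at 3 d in all 6 fits with a library left out. That call is of head removal in DD leaves at 3 d, not of the difference between groups. Without control replicate 2 or control replicate 3, or with a pseudocount of 0.1, 0 genes passed either interaction test. With decapitated replicate 4 alone, the log2 fold changes were 5.36 for Sobic.009G217500, 3.80 for Sobic.003G207900 and 2.31 for Sobic.006G163401. They were 1.51 for Sobic.001G541400 and -1.74 for Sobic.004G075000.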

How the results depend on the processing

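Of the 940 calls, 0 changed sign under the alternatives in which the gene was fitted. These genes were chosen by their change in the same libraries, which leaves little room for a change of sign. Of the 110 named genes called, 17 were called in all 6 fits with a library left out. Some of these 17 were in the table only through the decapitated libraries. Of these 110, 22 and 32 kept their call without control replicates 2 and 3, 17 and 56 without decapitated replicates 3 and 2, and 105 and 109 without control or decapitated replicate 4. In what follows, the counts are of genes past the test, of DEGs, and of differences against DD leaves at 10 d and against dd leaves at 3 d, with 940, 121, 3 and 3 in the fit reported. With a library left out they ranged from 55 to 1875, 13 to 323, 0 to 19 and 0 to 4. The fit without decapitated replicates 2 and 3 left 1 library in that group, so its counts are not given. A mean of at least 10 TPM gave 459, 35, 1 and 0 of fewer genes tested (10939), array weights 3343, 715, 857 and 87, and the 6 libraries alone 282 and 0 DEGs. An adjusted p under 0.01 alone left 128 genes, and DEGs at under 0.05 numbered 633. The differences numbered 0 and 0 with a pseudocount of 0.1, 12 and 15 with 3, 8 against DD leaves at 10 d with quantile normalization, and 0 against dd leaves at 3 d in the robust fit. The replicate block, although the labels do not say that the numbers pair libraries, gave 719 genes, 73 DEGs, and 7 and 0 differences. Genes that were not called changed sign in 5 cases: SbSWEET1A (Sobic.003G377700) was at -0.0032 with quantile normalization, -0.0715 without decapitated replicate 2 and -0.0747 with decapitated replicates 2 and 3 out, and ranged from -0.199 (without control replicate 2) to 0.182 with 1 library left out; SbSUT1 (Sobic.001G488700) was at 0.0300 with decapitated replicates 2 and 3 out. The cause of these shifts was not tested, and depth, which TPM does not keep, cannot be weighed.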

Other observations

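Several other gene groups, listed by description, had members that passed in DD leaves at 3 d, to be read against the 3.18% of all genes that rose and the 2.56% that fell. Of nitrogen transport and assimilation genes 4 of 71 rose and 2 fell, with 1 to 5 that rose when 1 library was left out; besides Sobic.003G207900 the amino acid transporter family gene Sobic.008G059000 went from 0.534, 4.26 and 5.90 TPM in control replicates 2, 3 and 4 to 27.4, 42.3 and 22.9 TPM (3.01 ± 0.57, limma adjusted p = 0.00726). Of auxin, gibberellin and cytokinin genes 6 of 80 rose and 4 fell (0 to 8 and 1 to 9 with 1 library left out), led by the GH3-type gene Sobic.002G361500, whose family joins amino acids to auxin, at 0.256, 0.230 and 2.10 TPM in controls and 27.0, 40.3 and 4.59 TPM after head removal (3.47 ± 0.67, adjusted p = 0.00798). Of phosphate genes 2 of 51 rose and 4 fell, and both that rose overlapped between groups: the acid phosphatase gene Sobic.009G070700 was at 145, 175 and 1565 TPM in controls and 2897, 5018 and 1068 TPM after head removal, with control replicate 4 above decapitated replicate 4. Of the nitrogen genes 1, and of the auxin, gibberellin and cytokinin genes 1, was kept in the table only through the decapitated libraries.

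Wax and cuticle genes fell in 2 of 24 members and rose in 1, against 2.56% and 3.18% of all genes. The ketoacyl-CoA synthase gene Sobic.004G249400, of the family that lengthens fatty acids for waxes, was at 22.4, 19.5 and 9.23 TPM in controls and 1.65, 0.832 and 3.12 TPM after head removal (-2.65 ± 0.55, adjusted p = 0.0127). Of 210 cytosolic ribosomal protein genes 0 rose and 2 fell, against 3.18% and 2.56% of all genes, although the median was 0.22. Some of the genes called in all 6 fits with a library left out have no description: Sobic.002G417201, named after its values were seen, was at 2.94, 2.53 and 4.92 TPM in controls and 54.6, 84.1 and 37.6 TPM after head removal (3.70 ± 0.38, limma adjusted p = 5.52e-05). Its log2 fold change was 3.15 with decapitated replicate 4 alone. All these values share the sensitivity to single libraries given for the whole comparison.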
